A study of Mus musculus with 8 samples.

Results

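Eosinophils labelled SiglecFhi/CD101+ (2 libraries, replicates 1 and 2) were compared with eosinophils labelled resident (4 libraries, replicates 3 to 6), which together are 6 of the 8 libraries of a study of an asthma model in mice. All libraries came from C57BL/6 mice, and groups were read from the sample titles. The cells were sorted and their RNA was sequenced by CEL-Seq, which amplifies RNA linearly and reads transcript ends. No library carries a label for treatment, time, age, sex, organ or animal. Any exposure that differed with the sort gate therefore cannot be told apart from it, and the p-values cover the spread among these libraries alone, which may be technical. The other 2 libraries, labelled Siglec-Fint/CD101-, entered the statistical model for its estimate of spread and are not described.

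Eosinophils are granulocytes that mature under the cytokine IL-5 and store cationic proteins such as major basic protein and eosinophil peroxidase. In the mouse lung, a resident population with intermediate Siglec-F, a sialic acid-binding lectin, is present without inflammation, and allergen exposure brings in cells with high Siglec-F that carry CD101. Type 2 cytokines induce secreted proteins of the resistin-like and chitinase-like families in several lung cell types, and MHC class II molecules present peptides to CD4 T cells, mainly on dendritic cells, macrophages and B cells.

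The libraries differed in depth and composition as well as in label. Total counts ran from 5600610 to 11583550 in resident libraries and were 3109428 and 1513517 in SiglecFhi/CD101+ replicates 1 and 2. Genes of the mitochondrial genome held 38.6% to 61.8% of resident counts and 82.2% and 70.6% of SiglecFhi/CD101+ counts, without overlap (exact permutation test, two-sided, p = 0.133, the smallest value that test gives for 2 against 4). Outside those genes, 2137819 to 5296468 counts remained per resident library and 552121 and 444902 per SiglecFhi/CD101+ library. After thinning to 444902 such counts each, resident libraries had 10664 to 12805 genes with a count, and SiglecFhi/CD101+ libraries 10409 and 9214. Over 11828 genes, rank correlations (Spearman), which share a library's depth, were 0.70 to 0.78 between resident libraries but 0.41 between the SiglecFhi/CD101+ libraries, no higher than the 0.42 to 0.48 between the groups. Depth, mitochondrial share and group cannot be told apart here. In sorted bulk RNA, fewer cells of a type and less RNA per cell cannot be told apart either.

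Values are CPM, counts scaled to a common TMM-adjusted library size, and are listed in replicate order, resident 3 to 6 and then SiglecFhi/CD101+ 1 and 2. Log2 fold changes are SiglecFhi/CD101+ minus resident with an approximate standard error (SE). Adjusted p comes from the quasi-likelihood test of edgeR, adjusted by Benjamini-Hochberg over all 11828 tested genes, with a threshold of 0.05. A floor of 3 counts is 0.199 to 0.501 CPM in resident libraries and 1.59 and 1.83 CPM in the SiglecFhi/CD101+ libraries, and it covers counting error only.

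RNA of the proteins in the labels did not separate the groups as the labels name them. Siglecf, which encodes Siglec-F, was at 13.2, 43.9, 4.28 and 19.4 CPM in resident libraries, against 10.1 and 26.8 CPM. Its groups overlapped, and the log2 fold change of -0.13 ± 1.32 ran from -1.11 to 0.69 over 17 alternative fits. Cd101 was at 33.3, 26.1, 4.21 and 33.5 CPM in resident libraries against 1.06 and 0.61 CPM, from 2 counts and 1 count, in the libraries labelled CD101+. The ratio of resident to SiglecFhi/CD101+ was 26.8 (95% counting interval 9.15 to 130), and it did not pass (adjusted p = 0.236). The labels refer to protein on the cell surface, which these libraries do not measure.

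Il5ra, the IL-5 receptor alpha chain, had 1, 0, 0 and 57 counts in resident libraries and 0 in both SiglecFhi/CD101+ libraries. Epx, eosinophil peroxidase, had 0, 0, 25 and 0 counts in resident libraries and 0 in both SiglecFhi/CD101+ libraries. Neither gene entered the test, and nearly all resident counts of each came from 1 library. Prg2, which encodes major basic protein, was at 15.9, 4.95, 5.33 and 8.05 CPM in resident and 38.7 and 235 CPM in SiglecFhi/CD101+ libraries. Both SiglecFhi/CD101+ values lay above all resident values, with a log2 fold change of 4.00 ± 0.951 that did not pass (adjusted p = 0.118). Rnase2a, an eosinophil-type ribonuclease with Ear paralogs that may share its reads, had 145 of its 146 SiglecFhi/CD101+ counts in replicate 1 (76.9 CPM) and 1 count in replicate 2 (0.61 CPM), against 1 count in all resident libraries (log2 fold change 9.95, adjusted p = 0.0682). Ear2, another of these ribonucleases, had the opposite sign, at 225, 291, 125 and 211 CPM in resident and 46.7 and 120 CPM in SiglecFhi/CD101+ libraries. Of 6 tested granule genes, 2 lay above and 2 below every resident library, beside 6.78% and 27.4% of all tested genes.

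A total of 3 genes, 0.0254% of those tested, passed the threshold and were higher in SiglecFhi/CD101+ libraries, and 0 (0.0%) passed and were lower. At an unadjusted p under 0.05, a count used below only to describe lists, 432 genes (3.65%) were higher and 1552 (13.1%) lower in edgeR. DESeq2 called 312 higher and 627 lower genes at the adjusted threshold, and limma-voom 2 and 0. Counting values alone, 802 genes (6.78%) had both SiglecFhi/CD101+ libraries above every resident library, and 3237 (27.4%) had both below. By the sign of the log2 fold change alone, 4274 of the 11828 tested genes were above 0 and 7553 below. Counts of list members in this report are read beside the shares given here. Over all tested genes the log2 fold change had a median of -0.72, and -3.15 to -0.26 over the alternatives, so the values below are read beside it. It was -3.15 without SiglecFhi/CD101+ replicate 1 and -2.12 without replicate 2. The 3 genes that rose were Retnla, Igha and Gm26870.

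**Figure D1:**
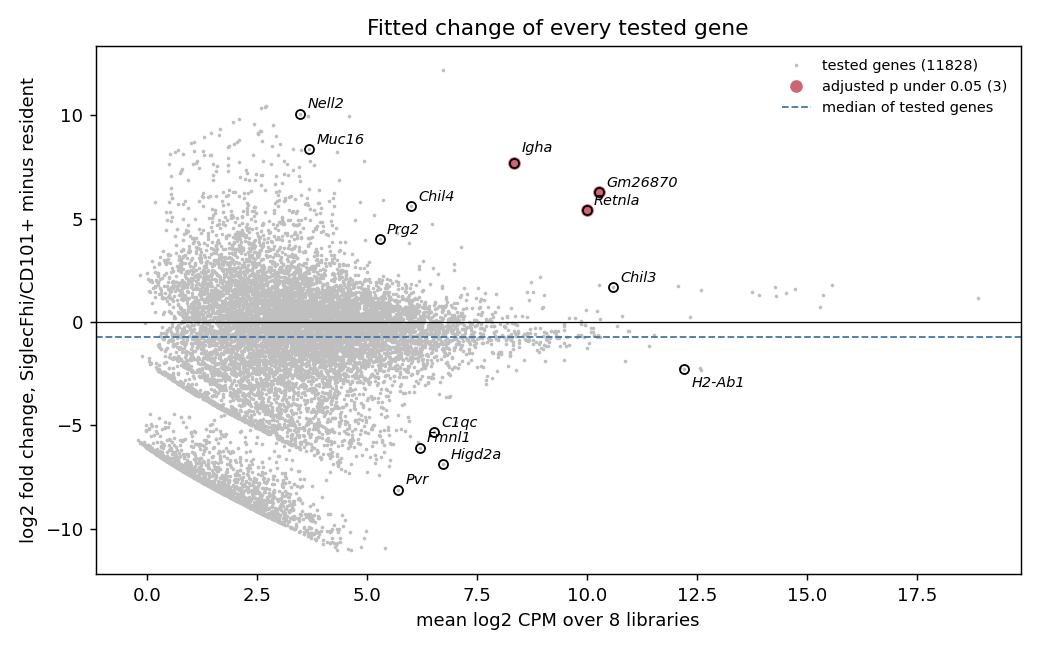
Log2 fold change (SiglecFhi/CD101+ minus resident) against mean log2 CPM over 8 libraries for the 11828 tested genes. Red marks the 3 genes past the adjusted threshold, circles mark genes named in the text, the dashed line is the median of -0.72, and the separate band of low points holds genes with few or 0 SiglecFhi/CD101+ counts, whose fitted change depends on the prior count.

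Retnla (ENSMUSG00000061100, chromosome 16, 48842551 to 48844461, GRCm38), which encodes resistin-like alpha, a secreted protein induced by IL-4 and IL-13, rose. It was at 11.9, 43.1, 29.9 and 79.7 CPM in resident libraries, against 2530 and 982 CPM in the SiglecFhi/CD101+ libraries, where it ranked among the 12 most abundant genes outside the mitochondrial genome. Each SiglecFhi/CD101+ value was far above the highest resident value. The log2 fold change was 5.41 ± 0.607 (adjusted p = 0.00124) and ran from 4.49 to 6.05 over 17 alternatives, 15 of which also called the gene. The call was lost in a fit of the 6 compared libraries alone (adjusted p = 0.0506) and without SiglecFhi/CD101+ replicate 1 (adjusted p = 0.0584, log2 fold change 4.49).

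The chitinase-like genes had higher values beside Retnla without passing. Chil3, which encodes Ym1, was at 708, 689, 501 and 517 CPM in resident and 2140 and 1750 CPM in SiglecFhi/CD101+ libraries (1.69 ± 0.38, adjusted p = 0.11). Chil4, a close paralog that may share reads with Chil3, was at 0, 0.0786, 3.15 and 0.0665 against 50.4 and 33.5 CPM (5.59, adjusted p = 0.111). Chia1, the acidic chitinase of the lung, was at 0.167, 1.97, 21.6 and 0 against 240 and 78.1 CPM (adjusted p = 0.197). All 3 had both SiglecFhi/CD101+ libraries above every resident library. The arachidonate lipoxygenase gene Alox15, chosen after its values were seen, did too, at 40.3 and 60.4 CPM against at most 14.4 CPM.

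Other type 2 genes were lower. Ccl17, a chemokine for T helper cells, was at 197, 153, 69.8 and 128 CPM in resident and 21.7 and 15.2 CPM in SiglecFhi/CD101+ libraries. Mrc1, the macrophage mannose receptor, was at 47.8, 46.8, 19.7 and 38.8 against 1.06 and 0.61 CPM. Il4 was at 15.7, 3.38, 5.89 and 38.8 CPM in resident libraries and had 0 counts in both SiglecFhi/CD101+ libraries. For these 3 genes both SiglecFhi/CD101+ libraries lay below every resident library, and the smallest adjusted p was 0.13. Of the 17 tested secreted type 2 effector genes, 1 passed (Retnla), 6 were higher and 3 lower at an unadjusted p under 0.05, and 5 lay above and 5 below every resident library. The list's median of 0.68 ran from -1.28 to 1.83 over the alternatives and was -0.43 with library totals alone, so it carries no direction.

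Among 11 IL-4 and IL-13 receptor and signalling genes, 4 were lower and 0 higher at an unadjusted p under 0.05, with a median of -1.74. The median was -5.03 without SiglecFhi/CD101+ replicate 1 and -0.93 without resident replicate 4, beside -3.15 and -0.49 for all tested genes. Il1rl1, the IL-33 receptor, was at 24.4, 74.4, 20.3 and 42.1 CPM in resident and 1.06 and 3.66 CPM in SiglecFhi/CD101+ libraries. Crlf2, a chain of the TSLP receptor, was at 38.4, 85, 58.8 and 74.2 against 13.8 and 1.22 CPM. Il4ra, the chain shared by IL-4 and IL-13 receptors, overlapped between the groups, at 73.7, 73.4, 29.5 and 33.4 against 20.1 and 34.2 CPM.

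**Figure D2:**
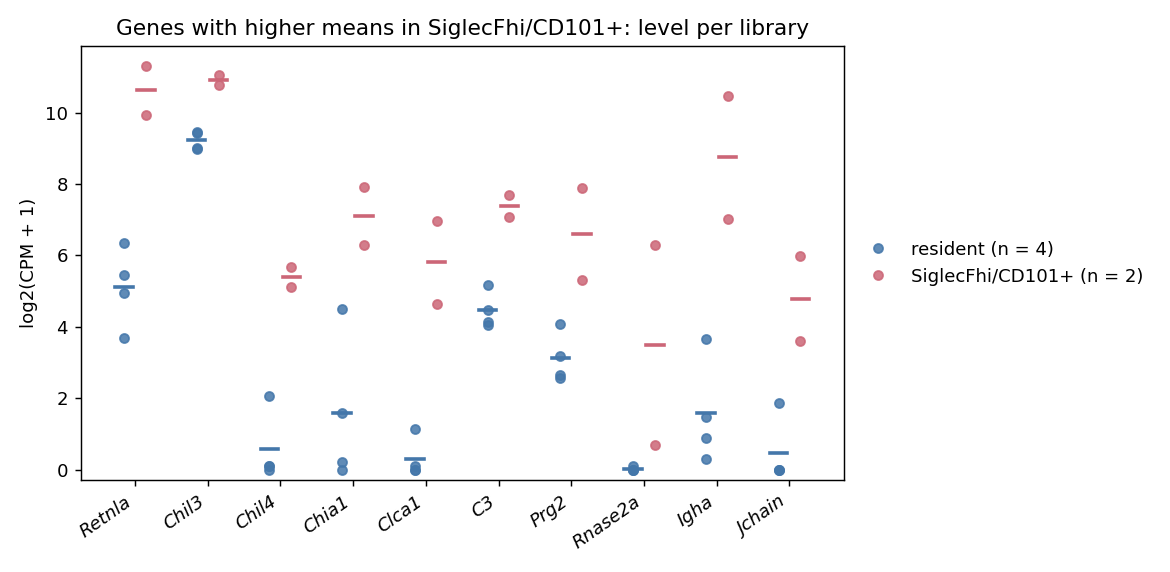
Log2(CPM + 1) of 10 genes whose mean was higher in the SiglecFhi/CD101+ libraries, 1 point per library and a bar at the group mean (resident n = 4, SiglecFhi/CD101+ n = 2). Retnla and Igha passed the adjusted threshold, and the points of Rnase2a, Prg2 and Igha show how far apart the 2 SiglecFhi/CD101+ libraries lie.

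The promoters of Retnla and Ccl17 are shown because these type 2 genes had opposite directions. They are the 250 bases before the transcription start from RefSeq on GRCm38.p6, for Retnla chr16:48842359-48842608 on the plus strand and for Ccl17 chr8:94810203-94810452 on the plus strand. Capitals mark TTC and GAA with 4 bases of any kind between them, the spacing at which STAT6 is known to bind, 145 to 136 bases before the start in Retnla and 154 to 145 in Ccl17.
Retnla: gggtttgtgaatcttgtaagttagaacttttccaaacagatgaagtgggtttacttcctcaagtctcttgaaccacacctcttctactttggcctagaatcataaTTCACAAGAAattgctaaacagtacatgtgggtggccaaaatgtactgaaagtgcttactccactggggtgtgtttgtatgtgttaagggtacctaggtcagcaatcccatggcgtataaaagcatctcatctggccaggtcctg
Ccl17: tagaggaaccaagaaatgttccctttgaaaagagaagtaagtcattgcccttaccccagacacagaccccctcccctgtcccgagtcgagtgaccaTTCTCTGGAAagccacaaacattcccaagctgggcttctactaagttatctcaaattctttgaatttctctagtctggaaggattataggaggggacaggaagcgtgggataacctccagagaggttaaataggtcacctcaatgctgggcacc
This motif is in 5.85% of 32851 promoters of the same length. The motifs and promoters to show were chosen after the matches were seen. In all, 4 motifs were searched on both strands in the 10 of 14 type 2, granule, MHC class II and other genes that the table holds. It was in 2 of the 10, and TTCNNNGAA (7.02% of all promoters) was in 3. ATTGG or CCAAT (33.8%) was in 6, and the C/EBP-type letters TTANNCAA, TTANNTAA, TTGNNCAA or TTGNNTAA (18.6%) were in 4. The shown matches overlapped no match to another motif, and Ccl17 also held TTCNNNGAA. A match is a description of letters, and binding was not measured.

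Igha (ENSMUSG00000095079, chromosome 12, 113254830 to 113260236, minus strand), which encodes the IgA heavy chain constant region, also rose. It was at 0.836, 0.236, 11.6 and 1.8 CPM in resident and 130 and 1410 CPM in SiglecFhi/CD101+ libraries. The groups did not overlap, but the 2 SiglecFhi/CD101+ libraries differed greatly from each other. The log2 fold change was 7.71 ± 1.19 (adjusted p = 0.041) and passed in 5 of 16 alternatives that gave an adjusted p. It did not pass without resident replicate 3 (0.2) or 6 (0.0879), or without SiglecFhi/CD101+ replicate 1 (0.0584) or 2 (0.107, log2 fold change 5.06).

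Other genes of antibody-secreting cells had higher values with Igha. Jchain, which joins IgA and IgM into polymers, was at 2.67 CPM in resident replicate 3, 0 in the other resident libraries, and 11.1 and 62.2 CPM in SiglecFhi/CD101+ libraries. Ighg2b, the IgG2b constant region, was at 552 CPM in SiglecFhi/CD101+ replicate 1 and 0 in replicate 2, with at most 0.0786 CPM in resident libraries. Cd79a, a B cell receptor component, was at 34.9, 62.6, 30.6 and 16.8 against 215 and 71.4 CPM. Igha, Jchain and Cd79a thus lay above every resident library in both SiglecFhi/CD101+ libraries. Of those 2 libraries, only replicate 1 had Ighg2b counts. Of 14 tested B and plasma cell markers, 1 passed (Igha), 5 were higher and 0 lower at an unadjusted p under 0.05, and the summed level was 130 to 250 CPM in resident and 1410 and 1680 CPM in SiglecFhi/CD101+ libraries. The median of 0.77 ran from -0.51, without SiglecFhi/CD101+ replicate 1, to 1.95 over the alternatives. Without that replicate, the median of all tested genes was -3.15. How much RNA of antibody-secreting cells contributed to Igha was not tested.

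Gm26870 (ENSMUSG00000097312, chromosome 9, 3000282 to 3038313, minus strand), a noncoding gene model in repeat-rich sequence whose reads cannot be placed with certainty, had the smallest p. It was at 86.6, 50.5, 71.3 and 24.1 CPM in resident and 1870 and 7160 CPM in SiglecFhi/CD101+ libraries, without overlap. The log2 fold change was 6.28 ± 0.553 (adjusted p = 0.000102), and all 17 alternatives called the gene, with values from 4.91 to 6.87. Of 6 tested gene models listed for repeat-rich regions, Gm10800, Gm11168 and Gm10801, annotated as protein-coding, also lay above every resident library. Gm26917 lay below, at 560, 112, 222 and 255 against 39.8 and 55.5 CPM.

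Genes of MHC class II presentation were lower in value in SiglecFhi/CD101+ libraries, though 0 of 14 tested members passed by edgeR over all genes. Of the 14, 8 were lower and 0 higher at an unadjusted p under 0.05, and 10 lay below every resident library. Its members' log2 fold changes had a median of -2.11, beside -0.72 for all tested genes, and ran from -2.75 to -1.64 over the alternatives. Leaving out either SiglecFhi/CD101+ library put the list's median above that of all genes of the same fit, at -2.56 against -3.15 without replicate 1 and at -1.86 against -2.12 without replicate 2.

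H2-Ab1, the beta chain of I-A, was at 6000, 9720, 3680 and 6850 CPM in resident and 1450 and 1290 CPM in SiglecFhi/CD101+ libraries (-2.26 ± 0.386, adjusted p = 0.0682). H2-Aa, the alpha chain, was at 9090, 15100, 4360 and 9980 against 2000 and 1850 CPM (adjusted p = 0.11). Cd74, the invariant chain, was at 8050, 14400, 4620 and 9650 against 2350 and 1540 CPM (adjusted p = 0.108). The lowest resident value, always replicate 5, stayed above both SiglecFhi/CD101+ values, which lay close together. Even so, H2-Aa, Cd74, H2-Eb1 and H2-Ab1 were among the 12 most abundant genes outside the mitochondrial genome in the SiglecFhi/CD101+ libraries, ranked by the lower of the 2 values.

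The peptide-loading gene H2-DMa was at 469, 746, 281 and 545 CPM in resident and 136 and 65.3 CPM in SiglecFhi/CD101+ libraries. Cd86, a co-stimulatory ligand for T cells, was at 111, 101, 33.9 and 107 against 9.54 and 6.71 CPM. Ciita, the transactivator of class II genes, chosen after its values were seen, overlapped between the groups at 87.4, 98.9, 40.7 and 98.7 against 42.4 and 37.2 CPM. Dendritic cell markers were lower in sum too, at 1920 to 4050 CPM in resident against 990 and 908 CPM. Of 14 tested, 4 were lower and 0 higher at an unadjusted p under 0.05, beside 13.1% and 3.65% of all tested genes. Their median was -1.93, beside -0.72 for all tested genes. With 1 library left out it was never under -2.91, while all tested genes were at -3.15 without SiglecFhi/CD101+ replicate 1. Of the defining markers, Flt3 was at 6.25 to 23.9 against 0.53 and 0 CPM, Xcr1 at 9.6 to 20.7 against 0.53 and 1.22 CPM, and Zbtb46 overlapped at 14.7 to 52.8 against 47.7 and 13.4 CPM. Their part in the class II result was not tested.

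Among 18 tested MHC class I genes, 2 were lower and 0 higher at an unadjusted p under 0.05, beside 13.1% and 3.65% of all tested genes. The median of the list was -0.53, beside -0.72 for all tested genes. B2m, the light chain of class I molecules, overlapped at 1910, 1680, 1190 and 1580 against 1630 and 1140 CPM. Nlrc5, the class I transactivator, was at 16.5, 17.1, 3.79 and 9.44 CPM in resident libraries with 0 counts in both SiglecFhi/CD101+ libraries. Whether the class II and class I lists differed from each other was not tested.

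**Figure D3:**
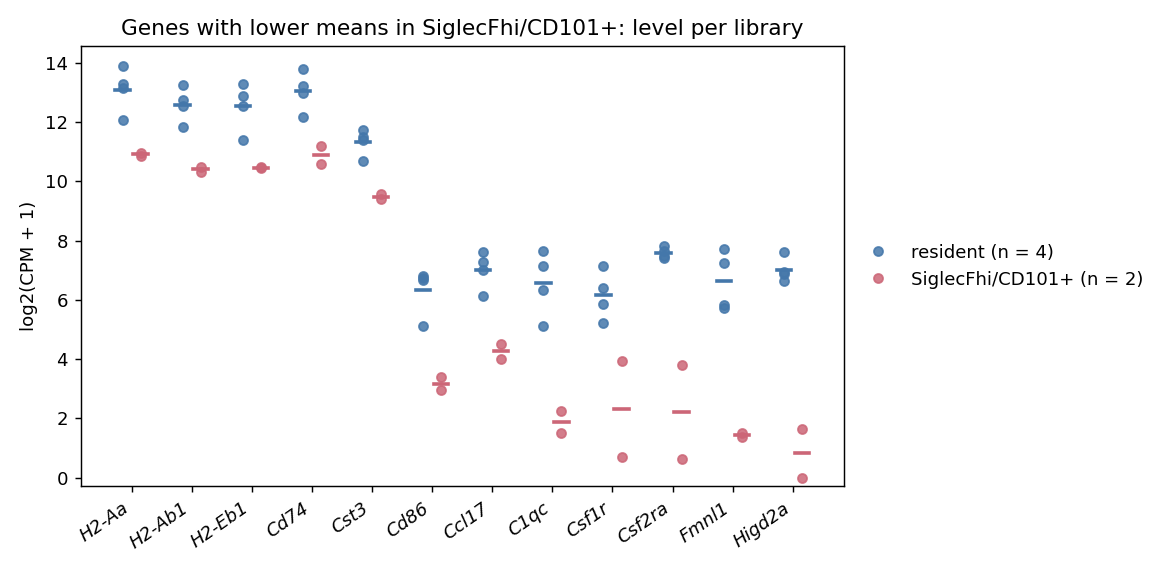
Log2(CPM + 1) of 12 genes whose mean was lower in the SiglecFhi/CD101+ libraries, 1 point per library and a bar at the group mean (resident n = 4, SiglecFhi/CD101+ n = 2). None of the 12 passed the adjusted threshold, and in each both SiglecFhi/CD101+ points lie under the lowest resident point.

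The promoters of H2-Aa and H2-Eb1, beta chain of I-E, are shown as abundant class II genes that were lower together. They are the 250 bases before the start from the same RefSeq table, chr17:34287824-34288073 on the minus strand and chr17:34305617-34305866 on the plus strand. Capitals mark ATTGG or CCAAT, the letters of the Y box of class II promoters, 48 to 44 bases before the start in H2-Aa, and 59 to 55 and 35 to 31 in H2-Eb1.
H2-Aa: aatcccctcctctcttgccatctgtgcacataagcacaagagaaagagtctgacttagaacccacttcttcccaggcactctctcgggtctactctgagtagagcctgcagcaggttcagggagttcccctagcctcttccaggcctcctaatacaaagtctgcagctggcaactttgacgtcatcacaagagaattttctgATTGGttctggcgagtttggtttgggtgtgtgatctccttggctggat
H2-Eb1: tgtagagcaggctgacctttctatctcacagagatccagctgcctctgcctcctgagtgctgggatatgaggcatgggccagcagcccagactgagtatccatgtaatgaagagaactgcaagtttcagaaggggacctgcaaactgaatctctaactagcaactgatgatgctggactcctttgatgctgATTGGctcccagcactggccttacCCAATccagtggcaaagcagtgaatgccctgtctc
With a share of 33.8% of all promoters, this short motif is common. In H2-Eb1, 1 of the shown matches overlaps the C/EBP-type letters given above.

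Macrophage genes did not move as one group. C1qc, a chain of complement C1q, was at 33.9, 199, 79.9 and 139 CPM in resident and 3.71 and 1.83 CPM in SiglecFhi/CD101+ libraries (-5.33, adjusted p = 0.0886). C1qa, another chain of the same protein, overlapped at 9.53, 29.4, 8.62 and 34.0 against 47.2 and 6.1 CPM. Csf1r, the receptor for macrophage growth factor, was at 57.7, 141, 36.2 and 84.3 against 14.3 and 0.61 CPM. Marco and Mertk overlapped. Of 17 tested macrophage markers, 1 was higher (Chil3) and 3 lower at an unadjusted p under 0.05, and the summed level was 1130 to 1880 CPM in resident and 2670 and 2340 CPM in SiglecFhi/CD101+ libraries, of which Chil3 was the greater part.

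Of 26 tested NF-kB targets and inflammatory cytokines, 0 passed (smallest adjusted p = 0.13), and 13 were lower and 0 higher at an unadjusted p under 0.05. In this list, 13 lay below and 1 above every resident library. The median was -1.27. Without SiglecFhi/CD101+ replicate 2 it was -2.35, beside -2.12 for all tested genes of that fit. No other fit with 1 library left out gave the list a lower median. Without SiglecFhi/CD101+ replicate 1 the list therefore lay above all tested genes, whose median was then -3.15. Il1b was at 387, 393, 256 and 598 CPM in resident and 41.4 and 143 CPM in SiglecFhi/CD101+ libraries. Ccl2, a monocyte chemokine, was at 68.7, 55.7, 54.8 and 46.4 against 0 and 1.22 CPM. Il6 was at 30.6, 10.9, 9.32 and 88.6 against 0.53 and 0.61 CPM. Cd83, a marker of activated antigen-presenting cells, was at 428, 323, 168 and 301 against 63.6 and 73.2 CPM. All 4 were separated between the groups, with adjusted p of 0.13 to 0.165.

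Immediate early transcription factors shared a sign without a gene that passed. All 21 tested had a log2 fold change below 0, as did 7553 of all 11828 tested genes. Only 3 of the 21 were lower at an unadjusted p under 0.05. The median was -0.95, near that of all tested genes. Without resident replicate 4 it was -0.54, beside -0.49 for all tested genes of that fit. With 1 library left out it was never under -1.15. All tested genes were at -3.15 without SiglecFhi/CD101+ replicate 1 and -2.12 without replicate 2, so the list lay above them in both fits. Junb was at 380, 610, 269 and 534 CPM in resident and 191 and 194 CPM in SiglecFhi/CD101+ libraries. Nr4a2, a nuclear receptor induced by stimulation, was at 71.9, 95.8, 52.9 and 79.2 against 4.24 and 0 CPM. Heat shock genes Hspa1b and Hspa1a lay below every resident library too, at 180 and 249 CPM and at 202 and 116 CPM against lowest resident values of 456 and 300 CPM.

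Of 17 tested genes of IL-5, IL-3 and GM-CSF receptors and signalling, 0 passed (smallest adjusted p = 0.11), 3 were lower and 0 higher at an unadjusted p under 0.05, and 14 had a log2 fold change below 0 and 3 above. Csf2ra, the GM-CSF receptor alpha chain, was at 199, 169, 176 and 223 CPM in resident and 0.53 and 12.8 CPM in SiglecFhi/CD101+ libraries (adjusted p = 0.111). Csf2rb, the beta chain shared with the IL-5 receptor, was at 202, 179, 106 and 235 against 63.1 and 90.3 CPM (adjusted p = 0.301). Socs3, an inhibitor of cytokine signalling, was at 201, 303, 70.8 and 109 against 19.6 and 7.93 CPM. Each was below every resident library, as were 9 of the 17 in all, beside 27.4% of all tested genes. At an unadjusted p under 0.05, 13.1% of all tested genes were lower. A log2 fold change below 0 was found for 7553 of the 11828 tested genes.

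Survival and death genes of the BCL2 and caspase families held 6 of 18 members that were lower at an unadjusted p under 0.05, 0 that were higher, and a median of -1.10. The median was -3.76 without SiglecFhi/CD101+ replicate 1, -2.10 without replicate 2 and -0.64 without resident replicate 6. For all tested genes the same fits gave -3.15, -2.12 and -0.50. Mcl1, a survival factor, was at 158, 214, 112 and 211 CPM in resident and 64.1 and 12.2 CPM in SiglecFhi/CD101+ libraries. Among death genes, Bmf had 0 SiglecFhi/CD101+ counts, Casp8 was at 21.1 to 136 against 0.53 and 1.83 CPM, and Pmaip1 at 22.3 to 48.7 against 0 and 1.22 CPM. Of the 18 tested members, 0 passed (smallest adjusted p = 0.118), 14 had a log2 fold change below 0 and 4 above. Over all 11828 tested genes, 7553 were below 0 and 4274 above.

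Lysosomal genes had 7 of 20 members lower and 0 higher at an unadjusted p under 0.05. Cst3, the protease inhibitor cystatin C, was at 3390, 2930, 1640 and 2730 CPM in resident and 680 and 756 CPM in SiglecFhi/CD101+ libraries (-1.90 ± 0.417, adjusted p = 0.11). Cd68, a lysosomal glycoprotein of phagocytes, was at 59.8, 78.2, 31.2 and 68.4 against 1.59 and 7.32 CPM. Both were separated between the groups. Cst3 is also on the dendritic cell list.

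Adhesion and motility genes included Itgb2, the beta-2 integrin chain, at 380, 531, 235 and 360 CPM in resident and 39.2 and 109 CPM in SiglecFhi/CD101+ libraries. Selplg, the ligand of P-selectin, was at 173, 188, 102 and 181 against 34.5 and 31.7 CPM. Fmnl1, a formin of leukocytes, was at 56.3, 212, 52.3 and 150 against 1.59 and 1.83 CPM (-6.09 ± 1.08, adjusted p = 0.0682). All 3 were below every resident library, beside 27.4% of all tested genes. So were 10 of 22 tested actin and motility genes and 5 of 13 integrins, selectins and ligands. Actb, beta-actin, was among them, at 4160, 3600, 2200 and 2720 against 1540 and 1280 CPM.

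Of 76 tested cytosolic ribosomal protein genes, 75 had a log2 fold change below 0 and 54 lay below every resident library. Over all 11828 tested genes, 7553 had a log2 fold change below 0 and 27.4% lay below every resident library. However, 13 of the 76 were lower at an unadjusted p under 0.05, and the list's median of -0.72 was that of all tested genes. Without resident replicate 4 it was -0.45, beside -0.49 for all tested genes of that fit. With 1 library left out it was never under -1.02. All tested genes were at -3.15 without SiglecFhi/CD101+ replicate 1 and -2.12 without replicate 2, so the list lay above them in both fits. Rpl4, among the most abundant genes, overlapped at 1550, 3320, 1570 and 2980 against 1950 and 1490 CPM. Rplp2, a protein of the ribosomal stalk, had the smallest p of the list, at 277, 419, 191 and 318 against 89.6 and 118 CPM.

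Of 13 protein genes of the mitochondrial genome, 0 passed (smallest adjusted p = 0.111), and 12 were higher and 0 lower at an unadjusted p under 0.05. In all, 12 lay above every resident library, and the median was 1.45. Without SiglecFhi/CD101+ replicate 1 it was 0.93, beside -3.15 for all tested genes of that fit. mt-Nd2, a subunit of complex I, was at 15000, 8990, 8740 and 11100 CPM in resident and 48200 and 22600 CPM in SiglecFhi/CD101+ libraries (1.69 ± 0.392, adjusted p = 0.111). mt-Nd6, chosen after its values were seen and the one protein gene on the other strand of that genome, was at 3.51 to 9.58 against 0.53 and 0.61 CPM, from 269 and 2 counts. The 2 ribosomal RNA genes of the mitochondrial genome overlapped between the groups.

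Of 76 nuclear respiratory chain and ATP synthase genes, 1 was higher and 5 lower at an unadjusted p under 0.05, beside 3.65% and 13.1% of all tested genes. The median of the list was -0.54. Without resident replicate 5 it was -0.34, beside -0.47 for all tested genes of that fit. With 1 library left out it was never under -0.739. All tested genes were at -3.15 without SiglecFhi/CD101+ replicate 1 and -2.12 without replicate 2, so the list lay above them in both fits. Of the 76 genes, 55 had a log2 fold change below 0 and 21 above, beside 7553 and 4274 of all 11828 tested genes. Whether the nuclear and mitochondrial lists differed was not tested. Higd2a, which helps assemble complex IV, was at 194, 115, 99.2 and 121 CPM in resident and 2.12 and 0 CPM in SiglecFhi/CD101+ libraries. It came closest to the threshold among lower genes (-6.89 ± 1.13, adjusted p = 0.0585). Ndufa8, a complex I subunit, was the higher one, at 7.69, 17.6, 22 and 14.4 against 36.0 and 58.5 CPM.

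**Figure D4:**
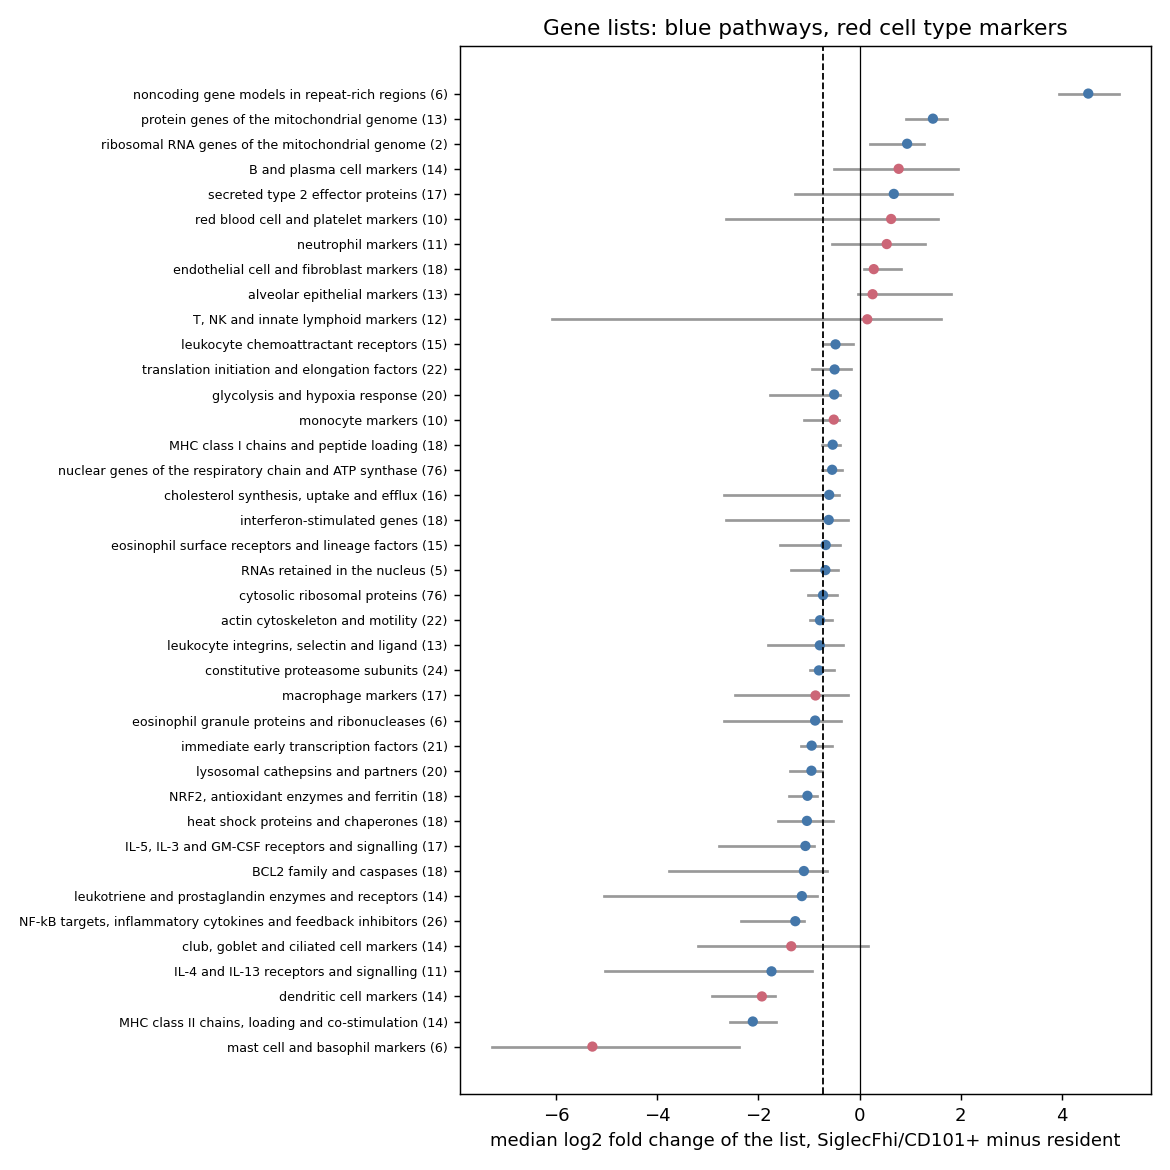
Median log2 fold change of 39 gene lists, with the number of tested members in brackets. Points are medians, grey lines give the range with 1 library left out, the dashed line is the median over tested genes (-0.72), and lists whose grey line crosses 0, such as secreted type 2 effector proteins, carry no stable direction. With 1 library left out, the median over tested genes itself ran from -3.15 to -0.47. A grey line that stays below 0 therefore does not by itself set a list apart from all tested genes.

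Other lower genes with a small p were almost at 0 in SiglecFhi/CD101+ libraries, except Mt2. Psmb5, a catalytic subunit of the proteasome, was at 55.1, 56.2, 69.0 and 57.1 CPM in resident libraries, with 1 count in each SiglecFhi/CD101+ library (ratio 106, 95% counting interval 29.3 to 876, adjusted p = 0.0822). Pvr, the poliovirus receptor, an adhesion protein, had 4041 resident counts and 1 SiglecFhi/CD101+ count (ratio 297, 53.2 to 11700, adjusted p = 0.0682). Ptger4, a prostaglandin E receptor, had 2577 and 1 (adjusted p = 0.108). Plcg2, a phospholipase of immune receptor signalling, was at 102, 152, 32.6 and 154 against 2.12 and 1.83 CPM, and Myo1e, a class I myosin, at 67.8, 64.5, 27.5 and 40.9 against 2.12 and 0.61 CPM. Mt2, a metallothionein, was at 450, 457, 193 and 349 against 67.9 and 21.3 CPM. The rule for the smallest p, which picked all of these, took only genes whose groups were separated.

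Genes with many resident counts and 0 in both SiglecFhi/CD101+ libraries were led by Spen, a nuclear corepressor, with 1863 resident counts, at least 45.6-fold lower against 3 counts over the group. Ndst1, Mospd3, Mrpl14, Tti1, Mob3b, Dlgap4 and the formyl peptide receptor gene Fpr1 followed, with Fpr1 at 22.7, 31.4, 33.0 and 36.5 CPM and at least 38-fold lower. Of the 11828 tested genes, 6033 had a count in both SiglecFhi/CD101+ libraries, 2228 in replicate 1 only, 1624 in replicate 2 only and 1943 in neither. Of the 674 genes at 50 CPM or more in every resident library, 666 had a count in both, 5 in replicate 1 only, 3 in replicate 2 only and 0 in neither. With every library thinned to the same number of counts outside the mitochondrial genome, 0 of the 660 such genes outside that genome were at 0 in each resident library, against 4 and 5 in SiglecFhi/CD101+ replicates 1 and 2. These genes were chosen for 50 CPM or more in every resident library, so 0 counts there could hardly occur. The choice set no such condition on the SiglecFhi/CD101+ libraries, so the contrast carries no result about the groups.

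Genes with 0 resident counts and the highest SiglecFhi/CD101+ values had few counts. Slco1c1, a transporter of thyroid hormones, had 93 counts at 43.5 and 6.71 CPM (at least 422-fold higher, adjusted p = 0.11), and Lypd1 had 52 at 14.3 and 15.2 CPM (at least 236-fold, adjusted p = 0.118). Timp4, Dcdc2a, Sult2a4, Scpep1os, Rgs21 and the vomeronasal receptor Vmn2r26 had 11 to 27 counts. Dcdc2a did not pass (adjusted p = 0.15), and the other genes of that sentence did not enter the test because of the filter on low counts.

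Several other higher genes with a small p are known mainly from nerve cells or epithelia, a description made after their values were seen. Nell2, a secreted protein of neurons, was at 24.4 and 60.4 CPM in SiglecFhi/CD101+ libraries with 1 count in all resident libraries. Grik1, a glutamate receptor, was at 67.9 and 16.5 CPM, with at most 0.631 CPM in a resident library. Olfm3 was at 20.1 and 58.5 CPM and Nxph1 at 51.4 and 18.9 CPM, with at most 0.314 CPM in a resident library. Olfr46, an olfactory receptor, was at 5.85, 1.02, 3.65 and 0.266 CPM in resident and 270 and 46.3 CPM in SiglecFhi/CD101+ libraries. The adjusted p of these 5 genes was 0.0822 to 0.11.

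Muc16, a membrane mucin of epithelia, was at 44 and 57.3 CPM against at most 0.236 CPM (adjusted p = 0.0822), and Clca1, a secreted product of goblet cells, at 125 and 23.8 CPM against at most 1.18 CPM. The marker list of club, goblet and ciliated cells did not follow them. Of its 14 tested members, 2 were lower and 0 higher at an unadjusted p under 0.05, beside 13.1% and 3.65% of all tested genes. The summed level was 818 to 9290 CPM in resident and 2330 and 2740 CPM in SiglecFhi/CD101+ libraries, and Muc5ac had 0 counts in all 6. C3, the central complement component, was at 15.7, 16.6, 34.8 and 21.3 against 204 and 134 CPM (2.93, adjusted p = 0.11). L3mbtl3, a chromatin protein, was at 1.67, 15.3, 10.9 and 9.44 against 146 and 224 CPM (4.30, adjusted p = 0.11). Slc7a11, a cystine transporter, was at 31.6, 23.9, 16.9 and 38.6 against 52.5 and 271 CPM.

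Gene span was examined after these genes were seen, since several are long. The median span in the annotation was 68117 bases for genes above every resident library, 22477 for those below and 27172 for all tested. With genes cut into 5 equal bins by span, 5.49%, 3.59%, 4.14% and 4.78% of genes in the 4 shorter bins lay above, and 15.9% of the longest bin, which starts at 86464 bases. The share that lay below was 31.0%, 30.7%, 29.9%, 28.0% and 17.1%. Median log2 fold changes were -0.98, -1.06, -0.93, -0.79 and 0.07. Genes spanning over 200000 bases held 3.39% to 5.09% of counts outside the mitochondrial genome in resident and 7.65% and 7.79% in SiglecFhi/CD101+ libraries.

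Olfactory and vomeronasal receptor genes, 1965 in the annotation and not known to be used by granulocytes as a class, took 0.0399%, 0.0322%, 0.044% and 0.04% of counts outside the mitochondrial genome in resident libraries. They took 0.324% (95% Wilson interval 0.309 to 0.339) and 0.195% (0.183 to 0.209) in SiglecFhi/CD101+ libraries. Noncoding gene models took 2.09% to 3.2% against 5.81% and 6.31%, and protein-coding genes 96.4% to 97.5% against 92.9% and 92.5%. These classes, like the span bins, were chosen after values were seen. In each the groups did not overlap (exact permutation test, two-sided, p = 0.133, the smallest it gives for 2 against 4). These shares and the mitochondrial share moved with the group together, and their part in the higher values of long and receptor genes was not tested.

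**Figure D5:**
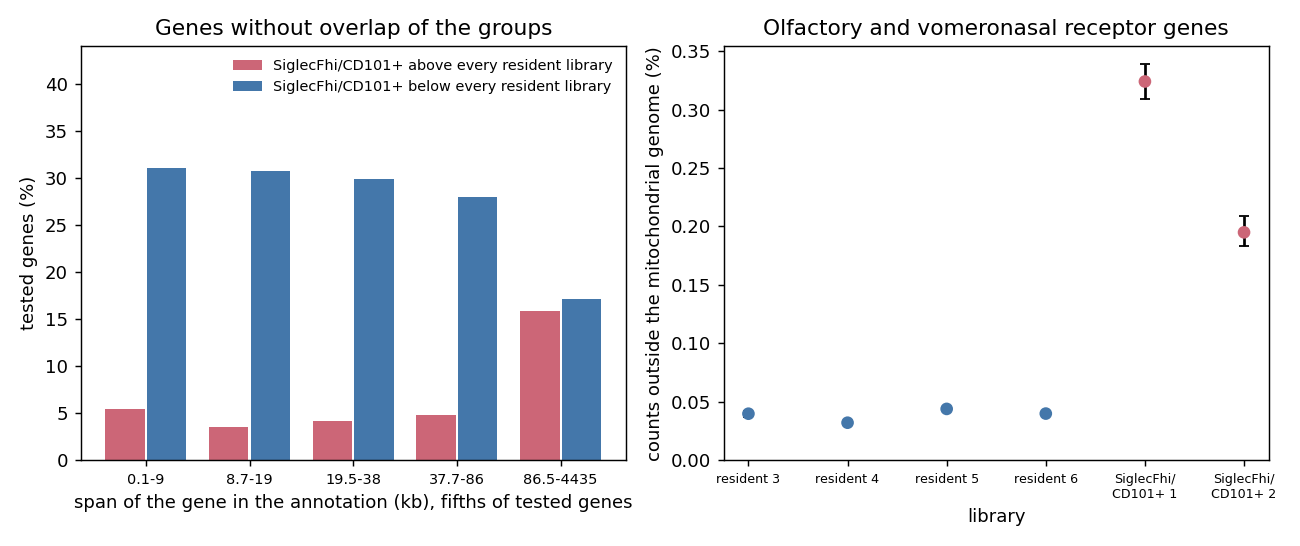
Left, percent of tested genes with both SiglecFhi/CD101+ libraries above (red) or below (blue) every resident library, in 5 bins of gene span in kilobases. Right, percent of counts outside the mitochondrial genome in olfactory and vomeronasal receptor genes per library, with 95% Wilson intervals that cover counting error only. The longest bin has 15.9% of genes above and 17.1% below, and both SiglecFhi/CD101+ points (0.324% and 0.195%) lie above the resident points.

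Markers of other cells showed no single pattern. T, NK and innate lymphoid markers summed to 70.4 to 95.4 CPM in resident and 553 and 162 CPM in SiglecFhi/CD101+ libraries, with Cd4, the T helper co-receptor, at 0.167, 3.77, 0.911 and 2.19 against 74.2 and 57.9 CPM. Trbc2, a T cell receptor constant region, was at 0.167, 30.7, 11.1 and 6.45 against 280 and 62.2 CPM. Cd3e had 3 SiglecFhi/CD101+ counts, and Nkg7, of cytotoxic lymphocytes, had 0 in both against 4.14 to 9.91 CPM. Of the 12 tested, 2 were higher and 2 lower at an unadjusted p under 0.05.

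Neutrophil markers summed to 235 to 642 CPM in resident and 594 and 1240 CPM in SiglecFhi/CD101+ libraries, and Ly6g had 0 counts in all 6. Mast cell and basophil markers had 3 of 6 tested members lower and 0 higher at an unadjusted p under 0.05. Kit, the stem cell factor receptor, was at 18.9, 18.5, 22.5 and 13.6 against 0.53 and 0.61 CPM. Mcpt8, a basophil protease, had 0 SiglecFhi/CD101+ counts but overlapped, at 0, 7.7, 0 and 8.51 CPM in resident libraries. Gata2 and Hdc, of the same list, overlapped between the groups too, with log2 fold changes of 0.128 and -0.556. Alveolar markers overlapped in sum, at 831 to 6920 against 4100 and 2990 CPM, while Sftpa1, a surfactant protein, lay above every resident library at 681 and 653 against at most 459 CPM. Endothelial and fibroblast markers summed to 1330 to 5080 against 4610 and 3060 CPM, and Col3a1, a fibrillar collagen, was at 46.8, 22.5, 257 and 52.1 against 329 and 270 CPM. Haemoglobin gene Hba-a2 overlapped at 4160, 571, 214 and 1110 against 2090 and 1620 CPM. These markers were not used to correct any value.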

How the data were processed

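CEL-Seq libraries of sorted mouse eosinophils were analysed from the deposited tables, 1 per library, of raw whole counts for each Ensembl gene, left without normalization by the authors. Tools in the submitters' processing notes are FastQC 0.11.5, Trim Galore, cutadapt 1.10, TopHat2 2.1.0, Bowtie2 2.2.6, HTSeq 0.6.1 and DESeq2 1.28.0. The genome build, strand setting and handling of molecular identifiers were not given in the sources used here; with reads in place of molecules, counting intervals would be too narrow. Of 54446 gene rows, 54409 matched a symbol in GENCODE vM21 (GRCm38), the source of positions.

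Counts were fitted in R 4.3.3 with edgeR 4.0.16 (TMM, filterByExpr, group means over all 8 libraries, robust quasi-likelihood, two-sided). The filter kept 11828 of 21197 genes with a count. The SE was taken as the size of the log2 fold change over the root of F. Alternatives were RLE, upper-quartile and no scaling factors, removal of mitochondrial genes, DESeq2 1.42.0, limma 3.58.1 voom, a non-robust fit, no filter, 20 counts in 2 libraries, the 6 compared libraries alone, thinning to 1513517 counts, an adjusted p under 0.1, and leaving out each library. Shares carry 95% Wilson intervals (SciPy 1.17.1).

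Members and lists were chosen with earlier results of these data known. Named genes are those past the threshold, the 12 smallest p per direction at or above median level without overlap, 8 label or effector genes, up to 6 per list with defining markers, the 12 most abundant, and 8 each with 0 counts in one group. Any other gene is named as a later choice, and 2 genes of the rule are not reported here.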

Additional observations from a re-analysis of the deposited data

Results flagged for a closer look

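In a group of 4 libraries, a value was singled out where its gap to the nearest other, divided by the range, exceeded Dixon's critical value for 4 samples. In all, 69 genes and list sums were examined in the resident libraries, and chance gives about 1 in 20 such groups. Igha (0.863) stood out through resident replicate 5, at 11.6 CPM. Rnase2a and Nell2 (1.0 each) had their only resident count in replicate 4. Clca1 (0.944) was highest in resident replicate 4, at 1.18 CPM. Psmb5 (0.857) was highest in resident replicate 5, at 69.0 CPM. The summed B and plasma cell markers (0.844) were lowest in resident replicate 6, at 130 CPM, and the summed red blood cell and platelet markers (0.845) were highest in resident replicate 3, at 9820 CPM.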

How the results depend on the processing

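No paired analysis was possible because the compared groups share no replicate number (1 and 2 against 3 to 6). The 3 higher genes became 312 with DESeq2, 253 without a filter, 1 with the 6 compared libraries alone, 7 at an adjusted p under 0.1, and 1 to 6 with 1 library left out. The 0 lower genes became 5 with library totals alone, 1 with mitochondrial genes removed, 627 with DESeq2, 117 without a filter, 6 at an adjusted p under 0.1, and 0 to 1 with 1 library left out. Of the 370 genes called without a filter, 150 were outside the filter used. The cause of the larger counts was not tested. The lone SiglecFhi/CD101+ library left when the other was removed was assumed to vary like the other groups. At an unadjusted p under 0.05, the 432 higher genes became 256 with library totals alone, 752 with DESeq2, 1731 without a filter, 285 after thinning and 695 without SiglecFhi/CD101+ replicate 2. The 1552 lower genes became 985 with limma-voom, 921 after thinning and 1007 without resident replicate 6. The 802 genes above every resident library became 425 with library totals alone and 879 to 2548 with 1 library left out, and the 3237 below became 3479 to 5400. Those overlaps were recounted with library totals, without mitochondrial genes and with 1 library left out; the other alternatives were not run for them. Of the named results, 0 changed sign while called. The SiglecFhi/CD101+ floor of 1.59 to 1.83 CPM limits what low genes can show.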
